A study of Mus musculus with 49 samples.

Results

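The genotype by IL-2 interaction at 4 hr was examined in CD8+ T cells of the *Stat5b* line. It is the log2 response of KI cells to 4 hr of IL-2 minus the log2 response of WT cells. A fold difference between the genotypes that is the same at 0 and 4 hr cancels. A difference in the mix of cells in these bulk samples need not cancel, and its part was not tested. The comparison rests on 12 of the 49 samples of the series, all RNA-seq libraries of the *Stat5b* line, with 3 libraries for each of WT and KI cells at 0 hr and at 4 hr. Splenic CD8+ T cells of adult C57BL/6J mice of both sexes, either homozygous for STAT5B Y699F (KI) or WT littermates, were used at 0 hr, freshly isolated and without IL-2, or after 4 hr of culture with recombinant human IL-2 at 500 IU/ml. No 4 hr culture without IL-2 was among the samples, so IL-2 and 4 hr of culture cannot be told apart. The labels do not say whether the 3 libraries of a group came from separate mice, and p-values then measure only the spread between these libraries. The allele was made by CRISPR/Cas9 in B6D2F1 zygotes, followed by backcrosses to C57BL/6J, and is carried by every cell of the mouse.

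IL-2 is bound by a receptor whose chains are encoded by *Il2ra*, *Il2rb*, and *Il2rg*. The kinases JAK1 and JAK3 on this receptor phosphorylate STAT5A and STAT5B on a tyrosine near the C terminus, and the phosphorylated STAT5 dimers bind palindromic GAS sites in the genome. In CD8+ T cells, STAT5 is known to induce feedback inhibitors of cytokine signaling, survival and cell cycle genes, and cytolytic and cytokine genes. Replacement of the tyrosine by phenylalanine removes the phosphorylation site of STAT5B and leaves the sequence of STAT5A unchanged. The paper proposes that the mutant protein may also interfere with WT STAT5 proteins, so STAT5A function need not be unaffected.

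The engineered change is shown because it defines the KI cells. It lies at chromosome 11, 100784286 (GRCm38.p6, which has the coordinates of the mm10 build of the files), in the exon from 100784253 to 100784304 of *Stat5b* on the minus strand (chromosome 11, 100780731 to 100859004). Within the window chr11:100784272-100784316 the donor oligo of the study differed from the RefSeq genome at 4 bases, in capitals, the last of which turns the codon tac of residue 699 into ttc. The guide is given with its adjacent CGG in capitals and lies at chr11:100784292-100784311.
Reference: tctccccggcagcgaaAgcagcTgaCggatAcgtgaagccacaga
Donor: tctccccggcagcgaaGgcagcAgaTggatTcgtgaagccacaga
Guide: ccggcagcgaaagcagctgaCGG

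The 12 libraries held 34916132 to 46974189 reads on the transcripts used, and a floor of 3 reads was set for each, equal to 0.0639 to 0.0859 CPM. These floors cover counting error only. Levels are given as RPKM, which corrects read counts for transcript length and library depth, with the depth scaled here by TMM. *Stat5b* mRNA was present in every library. Its RPKM was 41.6, 42.2, and 41.6 in WT and 36.5, 35.9, and 37.3 in KI cells at 0 hr, and 63.97, 66.9, and 60.9 in WT and 63.1, 61.7, and 61.8 in KI cells at 4 hr. The WT and KI libraries overlapped at 4 hr, and the *Stat5b* interaction was 0.15 ± 0.15 (SE, edgeR adjusted p = 0.945). The *Stat5a* RPKM was 31.01, 30.9, and 30.5 in WT and 30.8, 28.3, and 29.3 in KI cells at 0 hr, and 27.1, 27.7, and 25.4 in WT and 34.4, 36.99, and 32.1 in KI cells at 4 hr. *Stat5a* had an interaction of 0.43 ± 0.10 (SE, edgeR adjusted p = 0.0142), past the adjusted p but below the 2-fold threshold used for calls.

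The labelled cell type was checked against markers. The cells had been purified with the EasySep mouse kit for CD8+ T cells, which is meant to deplete other cell types. The RPKM of *Cd8a* was 293.9, 288.7, and 318.2 in WT and 238.4, 224.7, and 238.4 in KI cells at 0 hr, and 268.5, 275.1, and 298.8 in WT and 200.2, 208.8, and 201.4 in KI cells at 4 hr. The summed RPKM of the CD8 T cell markers in the files was 2975 to 3254 in WT and 2287 to 2393 in KI cells at 0 hr, and 2409 to 2703 and 2009 to 2025 at 4 hr. Markers of B, myeloid, and erythroid cells were higher in the KI libraries, and at most 1 marker of a list was at 0 in any library. Of the 15 B cell markers tested, 15 were called higher in KI cells at 0 hr (7.13% of all genes tested were), with a summed RPKM of 2200 to 2953 in WT and 5382 to 6485 in KI cells, and *Cd74* was the most abundant in all 12 libraries. Of the 22 myeloid markers, 16 were called higher, with sums of 421 to 522 and 834 to 1117, led by *Ctss*. Of the 11 erythroid markers, 11 were called higher, with sums of 60.4 to 170.1 and 533 to 1356, led by *Hba-a1* or *Hbb-bs*. Among the 15 markers of memory-phenotype CD8 T cells, 4 were called lower (0.617% of all genes), with sums of 1620 to 2146 and 1107 to 1265, led by *Ccl5*. Of the 12 NK cell markers, 6 were called lower and 1 higher, and of the 7 CD4 T cell markers 1 was called higher. Among the 12 markers of naive T cells, 2 were called lower, with sums of 2400 to 2560 in WT and 1641 to 1974 in KI cells, led by *Tcf7* or *Ccr7*. In these bulk samples, fewer cells of a type and less RNA per cell cannot be told apart. At 4 hr, 15 B cell, 17 myeloid, and 11 erythroid markers were called higher in KI cells (9.56% of all genes), and 7 memory-phenotype markers were called lower (1.12%).

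In WT cells 950 genes rose and 1482 fell after 4 hr of IL-2 (edgeR, 15562 genes tested; 6.1% and 9.52% of them). In KI cells 891 rose and 1226 fell (5.73% and 7.88%). The genotypes share no libraries, and 634 genes rose in both, which were 66.7% of those in WT and 71.2% of those in KI cells. A total of 959 genes fell in both (64.7% and 78.2%). The interaction was called, where the adjusted p did not exceed 0.05 and the fold was 2 or more, for 68 genes in the lower direction (0.437%) and for 19 in the higher direction (0.122%), 87 in all (0.559%). Its median over all genes tested was 0.03. Of the 68 lower genes, 51 had risen in WT cells and are termed reduced induction, which is 5.37% of the 950 genes induced in WT. Of the 19 higher genes, 15 had fallen in WT cells and are termed reduced repression, or 1.01% of the 1482. The interaction and the WT response share the WT libraries, so these classes are descriptions. The fit leaves out a shallow library of the *Stat5a* line (replicate 3 of the KI cells at 4 hr). With that library put back, 32 genes were lower and 8 higher, all among the 87, and with the 24 libraries of the *Stat5b* line alone 0.777% of 14799 genes were lower and 0.304% higher.

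**Figure D1:**
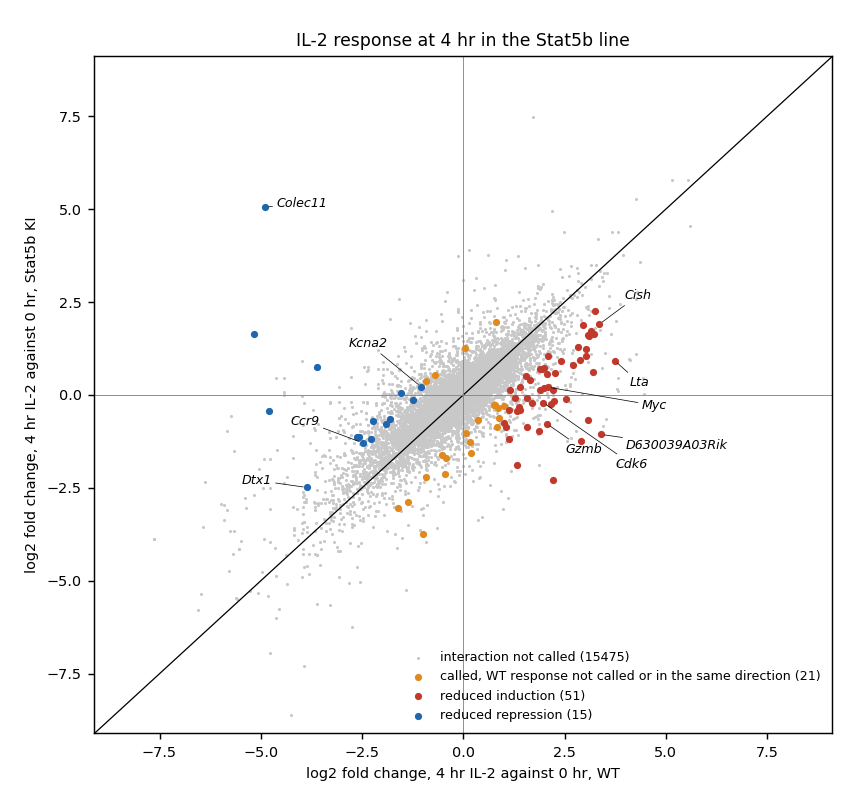
Log2 fold change from 0 to 4 hr in WT (horizontal axis) and in *Stat5b* KI cells (vertical axis) for the 15562 genes tested, with the diagonal of equal responses. The 51 genes with reduced induction (red) lie below the diagonal at positive WT values, and the 15 with reduced repression (blue) lie above it at negative WT values. The other 21 called genes are orange and the 15475 not called grey.

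*Lta*, *Tnf*, *Gzmb*, and *Osm* encode cytokines or a cytolytic protein and were called lower in the interaction. *Lta* (chromosome 17, 35203165 to 35205578, the span of all its RefSeq transcripts in mm10, as are the positions that follow) encodes lymphotoxin alpha, a cytokine of the TNF family. Its RPKM was 5.12, 4.84, and 4.88 in WT and 4.91, 6.00, and 5.21 in KI cells at 0 hr, and 64.7, 68.8, and 64.8 in WT and 9.73, 9.58, and 11.2 in KI cells at 4 hr. The genotypes overlapped at 0 hr, and all 3 KI libraries lay far below the WT libraries at 4 hr. The WT response was 3.74 and the KI response 0.92 on the log2 scale, the latter below the 2-fold threshold, with an interaction of −2.82 ± 0.18 (SE, edgeR adjusted p = 1.07e-13). *Tnf*, its neighbor on chromosome 17 and the gene of the inflammatory cytokine TNF, had an RPKM of 6.44, 5.06, and 6.93 in WT and 9.46, 10.4, and 7.82 in KI cells at 0 hr, and 25.3, 29.9, and 27.7 in WT and 8.49, 7.37, and 7.61 in KI cells at 4 hr. The KI libraries were above the WT libraries at 0 hr and below them at 4 hr. Its log2 response was 2.17 in WT and −0.24 in KI cells, and its interaction −2.41 ± 0.25 (SE, edgeR adjusted p = 2.52e-08). *Gzmb* (chromosome 14, 56258836 to 56262334) encodes granzyme B, a protease of cytotoxic granules. Its RPKM was 7.14, 12.2, and 16.00 in WT and 14.1, 11.6, and 13.05 in KI cells at 0 hr, and 27.3, 58.6, and 62.2 in WT and 8.31, 7.50, and 6.82 in KI cells at 4 hr. It rose in WT cells, by 2.06, with replicate 1 lower than the others at both times, while the KI libraries at 4 hr were all below those at 0 hr (log2 response −0.78, not called). The summed RPKM of the memory-phenotype CD8 T cell markers at 4 hr was 1211 to 1540 in WT and 802 to 884.5 in KI cells. The part of these cells in the *Gzmb* result, and in every other reduced induction described here, was not tested. The *Gzmb* interaction was −2.84 ± 0.46 (SE, edgeR adjusted p = 0.000146). *Osm*, the gene of the cytokine oncostatin M, rose in both genotypes, with an RPKM of 2.91, 2.82, and 2.44 in WT and 2.59, 3.64, and 2.46 in KI cells at 0 hr, and 15.4, 20.5, and 22.03 in WT and 8.36, 6.25, and 6.78 in KI cells at 4 hr. Its rise of 2.83 in WT and 1.30 in KI cells gave an interaction of −1.53 ± 0.28 (SE, edgeR adjusted p = 0.00103). All 4 calls held without any 1 of the 12 libraries and with every other setting tried.

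The induction of *Cish*, *Socs1*, and *Il12rb2* was called in both genotypes and was smaller in KI cells. *Cish* and *Socs1* encode SH2 domain proteins that feed back on cytokine receptors and JAK kinases. The RPKM of *Cish* (chromosome 9, 107296659 to 107302784) was 6.18, 5.21, and 6.49 in WT and 3.93, 5.53, and 3.63 in KI cells at 0 hr, and 66.4, 60.6, and 56.4 in WT and 16.5, 17.7, and 14.9 in KI cells at 4 hr. The genotypes did not overlap at 4 hr, while at 0 hr replicate 2 of the KI cells lay among the WT libraries. *Cish* rose by 3.36 in WT and by 1.90 in KI cells, with an interaction of −1.45 ± 0.31 (SE, edgeR adjusted p = 0.00489). The *Socs1* RPKM was 20.1, 14.4, and 13.3 in WT and 15.4, 23.03, and 13.7 in KI cells at 0 hr, and 124.05, 131.8, and 152.7 in WT and 49.9, 58.1, and 47.7 in KI cells at 4 hr. It rose by 3.09 in WT and 1.58 in KI cells, with an interaction of −1.52 ± 0.32 (SE, edgeR adjusted p = 0.00512). *Il12rb2*, a chain of the IL-12 receptor, had an RPKM of 2.41, 2.64, and 2.46 in WT and 2.49, 2.21, and 2.23 in KI cells at 0 hr, and 20.9, 20.9, and 21.9 in WT and 7.46, 6.92, and 6.90 in KI cells at 4 hr, and rose by 3.08 and 1.62. The *Il12rb2* interaction was −1.47 ± 0.32 (SE, edgeR adjusted p = 0.00573). In each of these 3 genes the KI cells at 4 hr were above both genotypes at 0 hr and below WT at 4 hr. With all 48 libraries in the fit, *Cish*, *Socs1*, and *Il12rb2* kept their direction and lost the call.

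*Myc* and *Cdk6* showed no called response in KI cells. *Myc* (chromosome 15, 61985341 to 61990361) encodes a transcription factor of cell growth. Its RPKM was 31.8, 27.1, and 29.8 in WT and 42.5, 47.3, and 34.7 in KI cells at 0 hr, and 115.2, 134.01, and 126.9 in WT and 51.6, 46.6, and 45.6 in KI cells at 4 hr. The KI libraries were all above WT at 0 hr and all below at 4 hr, with a response of 2.08 in WT and 0.21 in KI cells. The *Myc* interaction was −1.87 ± 0.25 (SE, edgeR adjusted p = 9.51e-06). *Cdk6* (chromosome 5, 3341004 to 3531008) encodes a cyclin D-dependent kinase that drives entry into the cell cycle, and its RPKM was 7.34, 8.71, and 7.60 in WT and 7.06, 7.33, and 7.73 in KI cells at 0 hr, and 27.3, 32.1, and 33.3 in WT and 6.41, 5.74, and 7.04 in KI cells at 4 hr. At 0 hr the genotypes overlapped. At 4 hr WT levels had risen by 1.97, and the KI response was −0.21. The *Cdk6* interaction was −2.17 ± 0.16 (SE, edgeR adjusted p = 5.15e-12). Both calls held in every setting tried. Among the 24 genes of G1/S cyclins, kinases, and E2F factors tested, *Cdk6* was the only one called, and the median interaction of the list was 0.01.

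*Ecm1*, *Gpr34*, and *Amica1*, which encode a secreted and 2 surface proteins, were also among the 12 leading genes. *Ecm1* (chromosome 3, 95734147 to 95739876), a secreted glycoprotein, had an RPKM of 4.83, 4.62, and 3.80 in WT and 4.40, 3.95, and 3.96 in KI cells at 0 hr, and 44.2, 40.6, and 36.8 in WT and 7.06, 5.64, and 6.07 in KI cells at 4 hr. The *Ecm1* interaction was −2.59 ± 0.24 (SE, edgeR adjusted p = 2.44e-09). The 4 hr KI libraries were only slightly above both genotypes at 0 hr. *Gpr34*, a receptor for lysophosphatidylserine, had an RPKM of 2.42, 1.65, and 1.86 in WT and 1.31, 1.06, and 1.53 in KI cells at 0 hr, and 11.1, 9.51, and 13.7 in WT and 1.37, 1.05, and 1.16 in KI cells at 4 hr. The *Gpr34* interaction was −2.65 ± 0.40 (SE, edgeR adjusted p = 7.53e-05). Its KI libraries at 0 and 4 hr overlapped, and those at 0 hr were below the WT libraries. *Amica1* (*Jaml*), a junctional adhesion molecule of leukocytes, had an RPKM of 16.4, 17.1, and 19.9 in WT and 18.9, 19.1, and 15.2 in KI cells at 0 hr, and 29.7, 36.00, and 46.3 in WT and 10.2, 8.95, and 10.3 in KI cells at 4 hr. It moved in opposite directions, with 1.07 in WT (called) and −0.85 in KI cells (below the fold threshold), and an interaction of −1.92 ± 0.14 (SE, edgeR adjusted p = 9.33e-12). An exon of *Gm10684* on the opposite strand overlaps *Amica1*, and the use of strand in counting is not stated, so the reads of the pair cannot be told apart. Opposite-strand exons also overlap *Selp*, *Acat3*, *Dsg2*, *Myo6*, *Nipa1*, *Rhoq*, *Elovl6*, and *Chrm4*, which are described below, with the same limit.

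The low-level members of the 12 leading genes were *D630039A03Rik*, *Fam19a3*, *F2rl2*, *Mpzl1*, and *Selp*. *D630039A03Rik*, with an RPKM of 0.247, 0.195, and 0.126 in WT and 0.231, 1.27, and 0.225 in KI cells at 0 hr, and 1.70, 1.79, and 2.53 in WT and 0.223, 0.480, and 0.120 in KI cells at 4 hr, had the most negative interaction of the 12, −4.46 ± 0.65 (SE, edgeR adjusted p = 3.35e-05). *Fam19a3* had an RPKM of 0.338, 0.457, and 0.343 in WT and 0.178, 1.50, and 0.120 in KI cells at 0 hr, and 2.87, 3.64, and 3.19 in WT and 0.220, 0.679, and 0.236 in KI cells at 4 hr. The *Fam19a3* interaction was −3.75 ± 0.84 (SE, edgeR adjusted p = 0.00889). In both, replicate 2 of the KI cells at 0 hr lay far above the other libraries at 0 hr, and replicate 2 was also the highest KI library at 4 hr. Without replicate 2 of KI at 0 hr the interaction of *D630039A03Rik* was −3.16 and still called, and that of *Fam19a3* was −1.78 and not called. *F2rl2*, a protease-activated receptor, rose in WT cells and fell in KI cells (1.14 and −1.18), with an interaction of −2.32 ± 0.43 (SE, edgeR adjusted p = 0.000969). *Mpzl1*, a receptor-like protein of the immunoglobulin family, overlapped between the genotypes at 4 hr, and its interaction of −1.99 ± 0.46 (SE, edgeR adjusted p = 0.0122) came with a higher KI level at 0 hr (0.810, 0.940, and 0.888 against 0.203, 0.250, and 0.254). *Selp*, the adhesion molecule P-selectin, had an interaction of −1.93 ± 0.49 (SE, edgeR adjusted p = 0.0245) at an RPKM of at most 1.78. The *Selp* call was lost without replicate 2 of WT or replicate 1 of KI at 0 hr, or replicate 1 of WT or replicate 2 of KI at 4 hr, at −2.15 to −1.66 over the libraries left out.

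**Figure D2:**
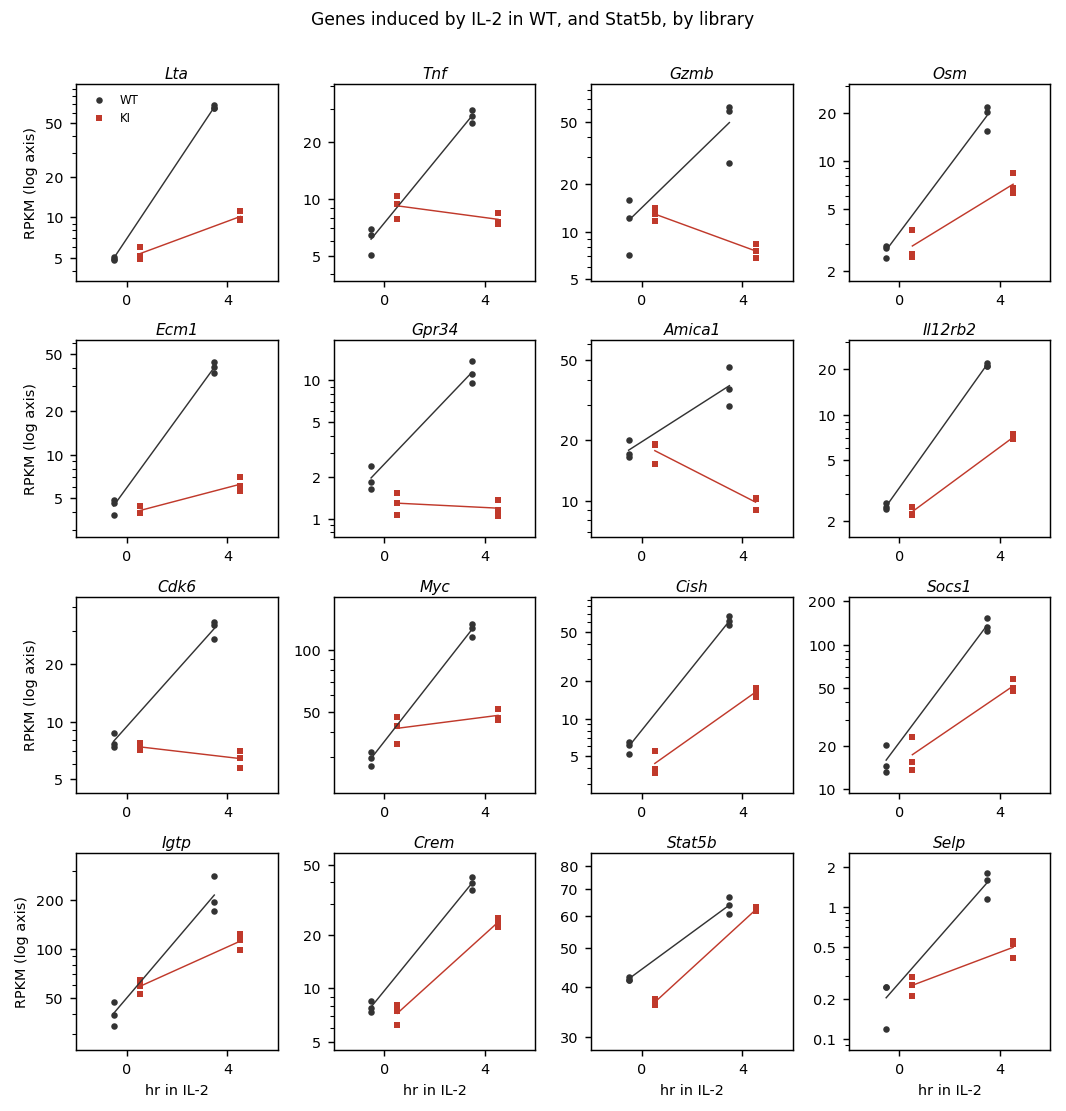
RPKM (log axis) of 14 genes with reduced induction, *Crem*, and *Stat5b* at 0 and 4 hr, with each of the 3 libraries of a group as a point, set to the left (WT) or right (KI) of its time, and the group means joined. In *Lta*, *Ecm1*, and *Cdk6* the WT (black) points separate from the KI (red) points only at 4 hr, whereas *Crem* rises in both genotypes and *Stat5b* overlaps at 4 hr.

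The remaining members of the class are named so that all 51 are accounted for, and those outside the naming rule were chosen after their values were seen. *Igtp*, an interferon-inducible GTPase of cell-autonomous immunity, had an RPKM of 47.5, 39.5, and 33.6 in WT and 59.2, 53.05, and 64.4 in KI cells at 0 hr, and 169.6, 192.1, and 277.9 in WT and 98.8, 123.3, and 112.8 in KI cells at 4 hr. The *Igtp* interaction was −1.48 ± 0.25 (SE, edgeR adjusted p = 0.00034). All KI libraries were above WT at 0 hr and below WT at 4 hr. *Gbp11* (−1.91), *Gm12250* (−1.60), and *Irgm2* (−1.001) are related GTPase genes that were also called lower, and *Gm12250*, *Igtp*, and *Irgm2* belong to a family of similar sequence. The *Irgm2* call was lost with the replicate number as a block and without replicate 2 or 3 of WT or replicate 3 of KI at 0 hr, or replicate 3 of WT or replicate 1 of KI at 4 hr. Related GTPase genes of the interferon list were not called, with interactions of −0.75 for *Irgm1*, −0.75 for *Gbp2*, −0.78 for *Gbp4*, and −0.18 for *Gbp3* (edgeR adjusted p = 0.205, 0.704, 0.261, and 0.99). *Ifng*, the gene of interferon gamma, fell in both genotypes at 4 hr (−2.46 and −2.48). *Acat2* (−1.26) and *Acat3* (−1.49), near-identical neighbors on chromosome 17 that encode acetyl-CoA acetyltransferases, may share reads. *Gucy1b3* (−2.09) and *Gucy1a3* (−1.83) encode the subunits of soluble guanylate cyclase, and both had lower interactions. *Il10ra*, a chain of the IL-10 receptor (−1.02, with log2 responses of 1.15 in WT and 0.13 in KI cells, the latter not called), *Gadd45g*, a stress-response gene (−1.75), *Lyst*, a regulator of lysosome trafficking (−1.25), *Slc30a4*, a zinc transporter (−1.64), and *Metrnl*, a secreted factor (−1.68), were further members at an RPKM above 1 in WT cells. Interactions between −4.15 and −1.04 were also called for *Fam20a*, *Tmem178b*, *D830046C22Rik*, *Gcnt4*, *Dsg2*, *Adamtsl4*, *Pygl*, *Dyrk4*, *Tmem37*, *Nipa1*, *Myo6*, *Setbp1*, *Gpr83*, *Prelid2*, *Rhoq*, *Ralgds*, *Gpr146*, *Mettl20*, *Fam46a*, and *Cndp2*. *Mir1949* was called lower too, but it had 3 or fewer counts in every library of at least 1 group, and its fitted value is no measure of size. *D830046C22Rik* and *Gpr146* are 1 gene in the RefSeq annotation used here. Many of these calls depended on single libraries. The *Lyst* and *Dyrk4* calls were lost without replicate 2 of KI at 0 hr, that of *Il10ra* without replicate 3 of WT at 0 hr, and those of *Ralgds*, *Mettl20*, and *Cndp2* without replicate 1 of WT at 0 hr. With each of the 12 libraries left out in turn, *Dsg2* and *Gpr83* kept the call 3 times, *Tmem37* 4, *Mir1949* and *D830046C22Rik* 5, *Fam46a* 8, and *Nipa1* 9 times. With all 48 libraries in the fit, 25 of the 51 genes lost the call, among them *Igtp*, *Gm12250*, *Irgm2*, *Il10ra*, *Lyst*, *Gucy1a3*, *Fam19a3*, *Mpzl1*, and *Selp*.

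Of the 51 genes with reduced induction, 11 were still called higher in KI cells, 36 were not called, and 4 were called lower. The median log2 response was 2.08 in WT and 0.17 in KI cells. In 50 of the 51, all 3 KI libraries lay below all 3 WT libraries at 4 hr. Over all genes tested this held for 24.8%, but the 51 were chosen by an interaction that uses these libraries, and nothing is read from the count. *Crem*, a cAMP-responsive transcription factor gene, shows the other case. It rose in both genotypes (2.33 in WT and 1.71 in KI cells), with an RPKM of 7.33, 7.76, and 8.46 in WT and 7.47, 6.21, and 8.01 in KI cells at 0 hr, and 42.5, 39.4, and 36.2 in WT and 23.8, 25.04, and 22.3 in KI cells at 4 hr. The *Crem* interaction was −0.61 ± 0.26 (SE, edgeR adjusted p = 0.367) and did not pass.

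Promoters of the genes with reduced induction were searched for the GAS letters TTCNNNGAA, a palindrome read the same on both strands, in the 250 bases upstream of the transcription starts in the RefSeq promoter table (GRCm38.p6). The 51 genes gave 39 RefSeq genes with a promoter in the table, and 9 of these (23.1%) held the letters, against 7.31% of the 12060 tested genes with a promoter and 1 of 12 (8.33%), *Colec11*, among the genes with reduced repression. The 9 genes were *Lta*, *Igtp*, *Gm12250*, *Irgm2*, *Il12rb2*, *Gcnt4*, *Lyst*, *Rhoq*, and *Gpr146*, which RefSeq joins with *D830046C22Rik*. *Igtp*, *Gm12250*, and *Irgm2* are close together on chromosome 11 and of similar sequence, so their matches may not be independent. Of the 39 genes, 6 had more than 1 window and counted once, and 17 had no window at the outer end of the gene's span, so that such a window can lie within the gene. A match is a description of the sequence and does not show that STAT5 binds there. The matches of *Lta* and *Igtp* are shown, since these are the genes with reduced induction named by rule whose windows were found to hold the letters, with the matched bases in capitals. In *Lta*, on the minus strand of chromosome 17, the matches lie at 35205495 to 35205503 and at 35205359 to 35205367. The latter begins 16 bases before the start in the table, 35205351, which is that of the transcript counted here. A longer RefSeq transcript model of *Lta* starts at 35205578, and both matches lie within its first exon. In *Igtp*, on the plus strand of chromosome 11, the match begins 45 bases before the start. No match in the windows of *Cish*, *Cdk6*, *Gzmb*, *Socs1*, and *Tnf* says only that these letters are not in those 250 bases.
*Lta*, chr17:35205485-35205513, minus strand: accatcactcTTCAGGGAAccaggcttcc
*Lta*, chr17:35205352-35205377, minus strand: ccgactccctTTCCCAGAAcgcagta
*Igtp*, chr11:58199501-58199529, plus strand: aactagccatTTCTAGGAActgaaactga

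Fewer genes, 15, had reduced repression. *Dtx1* (chromosome 5, 120680203 to 120711867) encodes a regulator of Notch signaling. Its RPKM was 88.5, 85.97, and 93.3 in WT and 66.2, 55.01, and 72.04 in KI cells at 0 hr, and 5.90, 6.48, and 5.99 in WT and 12.8, 10.2, and 11.5 in KI cells at 4 hr. It fell in both genotypes, with log2 responses of −3.87 in WT and −2.49 in KI cells, and the KI libraries were below WT at 0 hr and above WT at 4 hr. The *Dtx1* interaction was 1.38 ± 0.21 (SE, edgeR adjusted p = 9.47e-05). *Ccr9* (chromosome 9, 123767211 to 123783457), a chemokine receptor for homing to the gut, had an RPKM of 32.4, 27.04, and 27.9 in WT and 40.7, 38.7, and 38.2 in KI cells at 0 hr, and 5.03, 4.58, and 6.04 in WT and 16.6, 15.03, and 16.5 in KI cells at 4 hr. All KI libraries were above WT at both times, and the gap was wider at 4 hr, with an interaction of 1.19 ± 0.20 (SE, edgeR adjusted p = 0.000245). *Ccr9* is itself one of the naive T cell markers, whose summed RPKM was 2400 to 2560 in WT and 1641 to 1974 in KI cells at 0 hr, and 2204 to 2262 and 1917 to 2065 at 4 hr. Their part in the *Ccr9* result was not tested. *Kcna2*, a voltage-gated potassium channel, had an RPKM of 4.35, 3.70, and 3.98 in WT and 3.77, 4.21, and 3.75 in KI cells at 0 hr, and 1.86, 1.82, and 2.18 in WT and 4.28, 4.12, and 5.24 in KI cells at 4 hr. It fell in WT cells (−1.04) and was not called in KI cells (0.22), with an interaction of 1.26 ± 0.17 (SE, edgeR adjusted p = 1.29e-05). *Cd72*, a surface receptor best known from B cells, had an RPKM of 36.6, 40.1, and 39.4 in WT and 44.8, 43.00, and 43.7 in KI cells at 0 hr, and 10.2, 11.4, and 11.7 in WT and 27.4, 28.8, and 27.7 in KI cells at 4 hr. The *Cd72* interaction was 1.16 ± 0.16 (SE, edgeR adjusted p = 9.51e-06). The KI libraries were slightly above WT at 0 hr and far above at 4 hr, when the summed RPKM of the B cell markers was 949.3 to 1239 in WT and 2896 to 3286 in KI cells. Their part in the *Cd72* result was not tested, and an exon of *Tesk1* on the opposite strand overlaps the gene. *Ntrk3*, a neurotrophin receptor, had an interaction of 1.54 ± 0.34 (SE, edgeR adjusted p = 0.00782) and was lower in KI cells at 0 hr (1.73, 1.55, and 2.00 against 3.34, 3.53, and 3.13). The calls of *Dtx1*, *Ccr9*, and *Cd72* held in every setting, and those of *Kcna2* and *Ntrk3* without any 1 library.

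Other members of this class rest on single libraries or on low levels. *Zfyve28* (interaction 1.59 ± 0.42 SE, edgeR adjusted p = 0.0331) kept its call only without replicate 2 of WT at 0 hr, replicate 1 of WT at 4 hr, or replicate 1 of KI at 4 hr, at 1.38 to 1.77 over the 12 libraries left out. *Arc*, an immediate early gene (interaction 1.13 ± 0.31 SE, edgeR adjusted p = 0.0416), kept it without replicate 3 of WT or replicate 2 of KI at 0 hr, or replicate 1 of WT or replicate 3 of KI at 4 hr, at 0.89 to 1.40. *Bbc3* encodes PUMA, a death-promoting BCL2 family member. Its RPKM was 28.7, 25.3, and 24.4 in WT and 14.9, 14.03, and 13.6 in KI cells at 0 hr, and 12.6, 10.1, and 10.6 in WT and 13.7, 13.1, and 11.8 in KI cells at 4 hr. The KI libraries were below WT at 0 hr and overlapped with WT at 4 hr, and the *Bbc3* interaction of 1.09 ± 0.29 (SE, edgeR adjusted p = 0.035) was kept only without replicate 3 of WT at 0 hr, replicate 1 of WT at 4 hr, or replicate 3 of KI at 4 hr, at 0.97 to 1.19. *Colec11*, a collectin, had an RPKM of 0.230, 13.7, and 0.225 in WT at 0 hr and of 0.125, 9.68, and 0.234 in KI cells at 4 hr, so that 1 library of each group carried its value. *Mfi2*, *1700042O10Rik*, and *Rasl2-9* had 3 or fewer counts in every library of at least 1 group, and *Chrm4*, *Shank1*, and *Tet1* complete the class. Over the 12 libraries left out in turn, *Chrm4* kept the call 0 times, *Shank1* 1, *Mfi2* 2, *1700042O10Rik* 7, and *Tet1* and *Rasl2-9* 8 times. With all 48 libraries, 9 of the 15 lost the call, *Ntrk3* and *Bbc3* among them.

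The other 21 genes called in the interaction were not induced or repressed by the threshold in WT cells, or moved the same way there. *Serpina3h* and its paralog *Serpina3g*, serine protease inhibitors of similar sequence, had interactions of −1.75 and −1.43. The *Serpina3g* RPKM was 15.6, 20.7, and 17.7 in WT and 33.3, 36.1, and 30.6 in KI cells at 0 hr, and 16.4, 20.8, and 23.4 in WT and 13.7, 14.2, and 13.9 in KI cells at 4 hr. It was higher in KI cells at 0 hr and lower at 4 hr, with no called response in WT. *Egr3*, an immediate early transcription factor of antigen receptor signaling, had an RPKM of 10.7, 8.24, and 9.10 in WT and 24.2, 23.8, and 22.6 in KI cells at 0 hr, and 7.02, 8.08, and 5.68 in WT and 7.17, 7.23, and 7.24 in KI cells at 4 hr. The genotypes overlapped at 4 hr, and its interaction of −1.28 ± 0.31 (SE, edgeR adjusted p = 0.0175) came with a KI level at 0 hr that was higher by 1.33, and the call was lost without replicate 2 of WT at 0 hr (−1.45 to −1.19 over all 12). *Spry1*, an inhibitor of ERK signaling (interaction −1.09 ± 0.30 SE, edgeR adjusted p = 0.0467), also overlapped at 4 hr and kept its call only without replicate 3 of WT or replicate 2 of KI at 4 hr (−1.26 to −0.95). *Car12*, a carbonic anhydrase, fell in both genotypes and more in KI cells (−1.37 and −2.88), with an interaction of −1.51 ± 0.31 (SE, edgeR adjusted p = 0.00372). *Pilrb1* (interaction −2.75 ± 0.68 SE, edgeR adjusted p = 0.0192) was higher in KI cells at 0 hr and lost its call without replicate 2 of WT or replicate 1 of KI at 4 hr (−3.19 to −2.33). *S100a1*, a calcium-binding protein, had an interaction of −1.68 ± 0.35 (SE, edgeR adjusted p = 0.00439), and *Hsf4*, a heat shock factor, one of −1.51 ± 0.35 (SE, edgeR adjusted p = 0.0133) that was lost without replicate 2 of KI at 0 hr, replicate 2 of WT at 4 hr, or replicate 3 of KI at 4 hr (−1.72 to −1.21). *Atp10a*, *Pdia4*, *Rgs1*, *Itih5*, *Slc35g1*, *Elovl6*, *Il18bp*, *Angptl4*, and *Pianp* were also lower. Of these, *Pianp* kept the call 3 times when each of the 12 libraries was left out, *Angptl4* 4, *Il18bp* 5, *Elovl6* 10, and *Slc35g1* 11 times. With all 48 libraries, 13 of the 21 genes lost the call, among them *Egr3*, *Serpina3h*, *Serpina3g*, *Spry1*, *Pilrb1*, and *Hsf4*.

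In the higher direction, 4 genes were outside reduced repression. *Art4*, an ADP-ribosyltransferase, had an RPKM of 3.19, 3.29, and 2.81 in WT and 2.60, 2.31, and 2.44 in KI cells at 0 hr, and 5.44, 4.46, and 6.37 in WT and 8.65, 11.2, and 8.95 in KI cells at 4 hr. It rose in KI cells (1.97) and by less than 2-fold in WT cells, with an interaction of 1.16 ± 0.20 (SE, edgeR adjusted p = 0.000488) that was lost without replicate 2 of WT at 4 hr (0.99 to 1.25). *Gpr15*, a homing receptor of the colon, was at 2.45, 2.58, and 2.50 in WT and 0.691, 0.390, and 0.737 in KI cells at 0 hr, and the KI level rose toward WT at 4 hr, with an interaction of 1.21 ± 0.31 (SE, edgeR adjusted p = 0.0238). The *Gpr15* call was lost without replicate 2 of either genotype at 0 hr, or replicate 1 or 3 of either genotype at 4 hr (0.93 to 1.37). *Kcnq5* (interaction 1.26 ± 0.22 SE, edgeR adjusted p = 0.000381), a potassium channel, and *Dnajc6* (1.29) were the others, and the *Dnajc6* call was lost without replicate 1 of KI at 0 hr, or replicate 3 of WT or replicate 1 of KI at 4 hr.

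**Figure D3:**
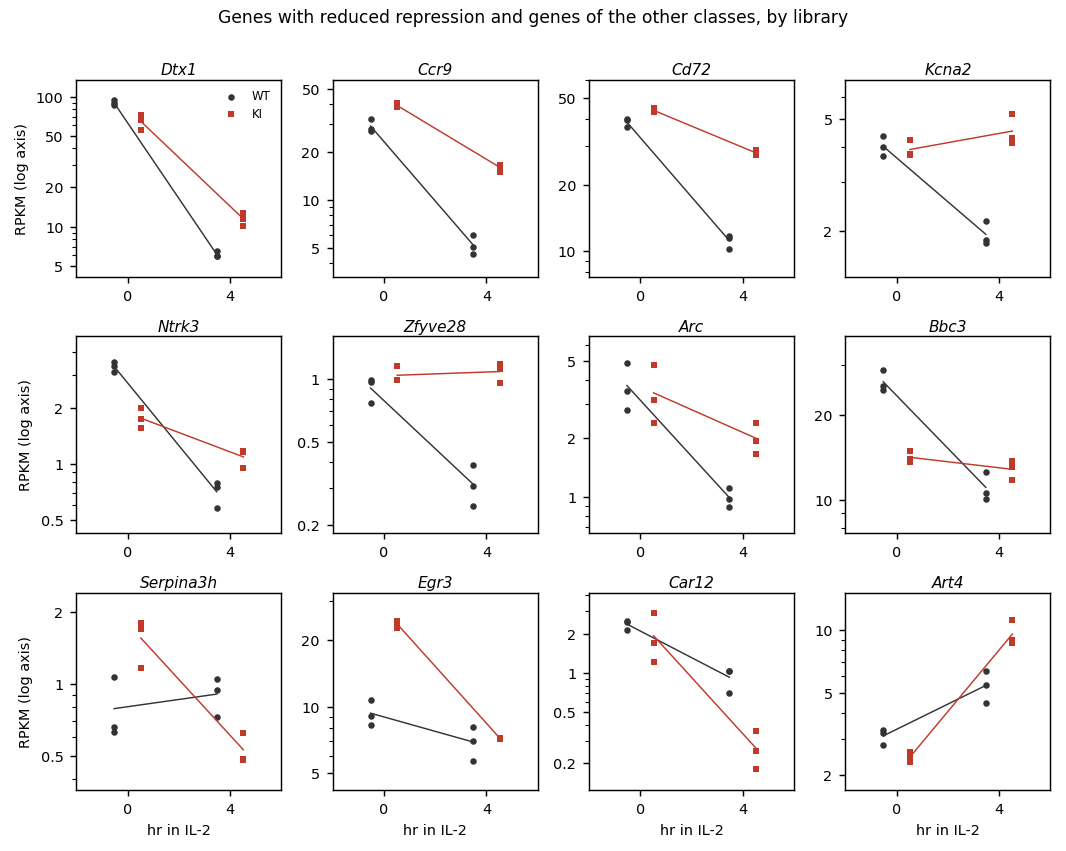
RPKM (log axis) at 0 and 4 hr of 8 genes with reduced repression (*Dtx1* to *Bbc3*) and 4 genes of the other classes, with each library as a point and the group means joined. *Ccr9*, *Cd72*, and *Kcna2* lie further apart at 4 than at 0 hr, while *Bbc3* and *Egr3* differ between the genotypes mainly at 0 hr.

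Differences at 0 hr accompany some of the calls. Of the 87 genes, 48 were within 0.5 (log2) of WT at 0 hr, 10 were called at 0 hr, and 29 lay between. Over all genes tested, 7.75% were called at 0 hr. Among the 51 genes with reduced induction, 29 were within 0.5, 4 were called higher and 2 lower in KI cells, and the median difference was 0.17. *Lta*, *Gzmb*, *Cdk6*, *Ecm1*, *Amica1*, *Osm*, *Socs1*, *Il12rb2*, *Cish*, and *Myc* were all within 0.5. Among the 15 genes with reduced repression, 10 were within 0.5 and 1 was called lower. Of the 15 lower genes whose WT response was not called, 5 were within 0.5, and their median difference at 0 hr was 0.72. The interaction subtracts the difference at 0 hr, so a class chosen by a lower interaction tends to hold genes with higher KI levels at 0 hr. Nothing is therefore read from that median. The B cell, myeloid, and erythroid markers were higher in KI cells at 0 hr too. The purification is meant to deplete those cells, but their markers were still found in these libraries. The part of those cells in the class was not tested. Across 6 marker lists, those of B cells, myeloid cells, NK cells, erythroid cells, CD4 T cells, and memory-phenotype CD8 T cells, 0 of 79 genes were called in the interaction by edgeR, 5 had an unadjusted p under 0.05 (9.74% of all genes did), and DESeq2 called 1, *Klra4*. The median interaction was 0.13 for the B cell and for the myeloid markers and −0.01 for the erythroid markers. Of the 12 naive T cell markers, *Ccr9* was called higher, *Tcf7* (0.65) and *Actn1* (0.51) passed the adjusted p and not the fold, 4 had an unadjusted p under 0.05, and the median was 0.43. Of the 10 CD8 T cell markers tested, 0 were called by edgeR, DESeq2, or limma, 3 had an unadjusted edgeR p under 0.05, and *Cd5* (0.61) passed the adjusted p and not the fold, with a median of 0.17.

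Early IL-2 genes were also defined in a separate set of WT cells, the littermates of *Stat5a* KI mice, whose libraries are not in the interaction. Replicate 2 of these WT cells at 4 hr was kept, although it held fewer reads than the other libraries of these cells at 0 and 4 hr. Of the 1722 genes higher at 4 hr there, 43 (2.50%) were called lower in the *Stat5b* interaction and 1 was called higher, against 0.437% and 0.122% of all genes tested. Their median interaction was 0.0017, beside 0.03 for all genes. Of the 1643 genes lower at 4 hr there, 4 were called lower and 9 (0.548%) higher, with a median of 0.21. All 43 were among the 51 genes with reduced induction, so that the calls covered a small share of the early genes.

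Gene lists of T cell biology are described by their counts beside the 0.437% lower and 0.122% higher of all genes in the interaction. Of all genes, 6.1% rose and 9.52% fell in WT and 5.73% rose and 7.88% fell in KI cells. Of the 26 STAT5 target and feedback genes, 15 rose and 2 fell in WT, and 9 rose and 2 fell in KI cells. Of these 26, 7 were called lower in the interaction (*Lta*, *Gzmb*, *Cdk6*, *Osm*, *Socs1*, *Il12rb2*, and *Cish*), and the median was −0.56. The lists were chosen with earlier results of these data known. The paper counted *Lta*, *Gzmb*, *Cdk6*, *Il12rb2*, and *Cish* as direct targets partly because their mRNA was lower in KI cells. Nothing is therefore read from this count or median. Of the 25 effector molecules and transcription factors, 6 rose and 7 fell in WT, and 1 rose and 5 fell in KI cells. In the interaction 3 were lower (*Gzmb*, *Lta*, and *Tnf*), with a median of −0.07. Of the 29 immediate early and AP-1 transcription factors, 18 fell in each genotype, 2 rose in WT and 1 in KI cells, and *Myc* and *Egr3* were lower in the interaction. Of the 17 ERK feedback genes, 9 fell in WT and 8 in KI cells and *Spry1* was lower, although the median was 0.43. The phosphatase genes *Dusp1*, *Dusp4*, *Dusp5*, and *Dusp10*, chosen after their values were seen, had higher interactions that passed the adjusted p and not the fold (0.55 to 0.94). *Ccr9* was the only call among 25 quiescence and homing genes, *Bbc3* among 16 BCL2 family genes, and *Igtp* among 30 interferon-stimulated genes, whose median was 0.31. *Gbp11*, *Gm12250*, and *Irgm2*, also called lower, were not on that interferon list.

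No gene was called by edgeR, DESeq2, or limma in 10 further lists, and the numbers at an unadjusted edgeR p under 0.05 are given with the most abundant member and its interaction. Over all genes tested, 9.74% had such a p. They were 8 of 19 gamma chain receptors, JAKs, and STATs (*Il2rg*, 0.21), 3 of 16 NF-kB genes (*Tnfaip3*, 0.75), and 7 of 20 activation receptors (*Cd69*, −0.15). Among growth and metabolism genes they were 14 of 35 for ribosome biogenesis (*Npm1*, 0.04), 2 of 19 for nutrient transporters (*Slc38a2*, 0.06), 7 of 28 for polyamine, nucleotide, and one-carbon enzymes (*Odc1*, 0.48), 12 of 24 for sterol and fatty acid synthesis (*Acly*, 0.10), and 4 of 20 for glycolysis (*Gapdh*, 0.19). For amino acid response genes they were 3 of 18 (*Atf4*, 0.09), and for heat shock and isolation stress genes 3 of 16 (*Hspa8*, −0.06). The ribosome biogenesis genes, which *Myc* is known to drive, had a median of −0.18, and the sterol genes one of 0.31. The called genes *Acat2*, *Acat3*, and *Elovl6* were not on the sterol and fatty acid list, so its lack of calls holds for its members only. Some members of these lists passed the adjusted p and not the fold. In the gamma chain list, 1 was lower (*Il4ra*, −0.85) and 3 were higher. In the NF-kB list 2 were lower, and among activation receptors 2 were lower (*Tnfrsf18*, −0.66, and *Tnfsf8*, −0.93) and 1 higher. For ribosome biogenesis 3 were lower and for glycolysis 1, while 1 sterol gene and 1 heat shock gene were higher. *Il2ra* (−1.12) and *Il2rb* (−0.45) did not pass the adjusted p.

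**Figure D4:**
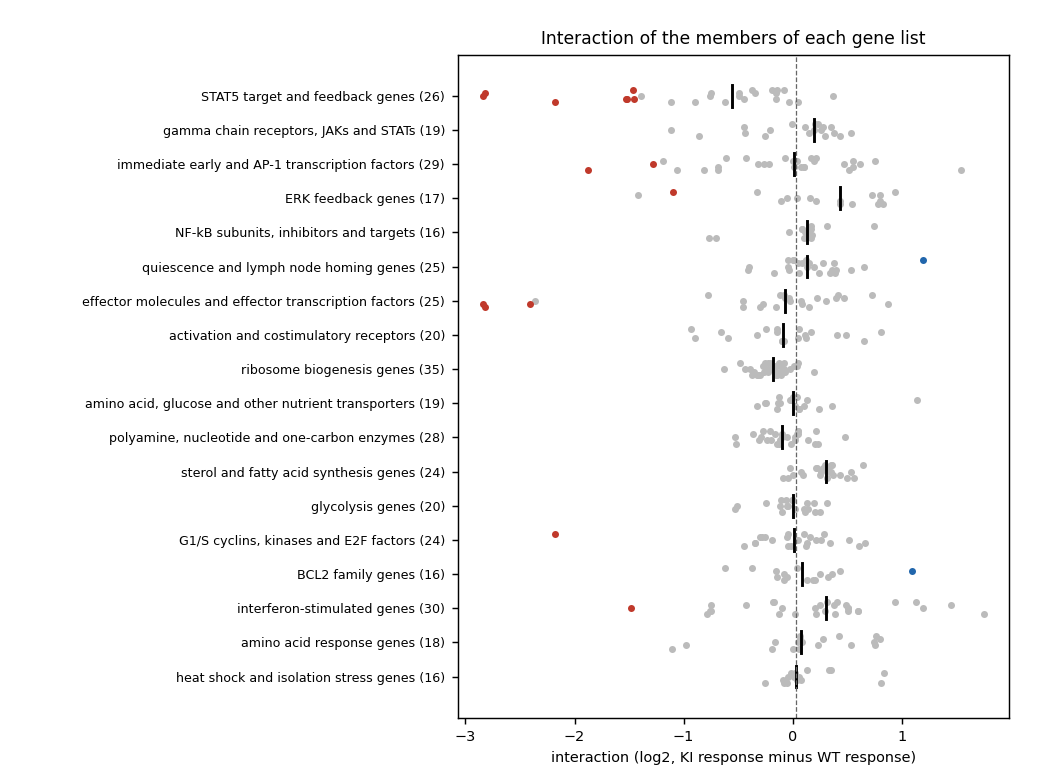
Interaction at 4 hr (log2, KI response minus WT response) of each tested member of 18 gene lists, with the number tested in parentheses, called genes in red (lower) or blue (higher), the list median as a bar, and the median of all genes as a dashed line. The STAT5 target and feedback genes have the lowest median, −0.56, and hold 7 called genes. The lists were chosen with earlier results of these data known, so nothing is read from this.

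The genes called in the interaction were followed to 24 and 48 hr, in libraries that the interaction does not use. Of the 51 genes with reduced induction, 35 were called lower in KI cells at 24 hr (5.78% of all genes) and 29 at 48 hr (10.7%). At 4 hr, in libraries that the interaction does use, 42 were called lower (1.12% of all genes), from which nothing is read. *Gzmb* rose further in WT cells, to an RPKM of 1826, 1922, and 1613 at 48 hr against 83.7, 84.02, and 95.9 in KI cells. Its log2 difference was −4.06 at 24 hr and −4.35 at 48 hr. *Lta* differed by −3.58 and −3.67, *Cdk6* by −2.40 and −2.57, *Il12rb2* by −2.70 and −2.57, *Cish* by −2.32 and −2.59, and *Myc* by −1.38 and −1.25, all called. Other genes followed another course. *Ecm1* was at 8.99, 8.86, and 7.18 in WT and 3.50, 3.55, and 4.05 in KI cells at 24 hr, and by 48 hr the genotypes overlapped, with no call. *Adamtsl4*, a secreted matrix protein, was lower in KI cells at 4 hr, overlapped at 24 hr, and was higher at 48 hr by 1.35. *Fam46a* (1.47) and *Gpr83* (1.35) were also called higher at 48 hr, and *Pygl* (1.44) and *Gcnt4* (1.04) at 24 hr. *Gcnt4* was called lower at 4 hr (−1.44) and again at 48 hr (−1.56). *Lyst* was called lower at 4 hr (−1.11) and not at 24 hr (0.02), while *Il10ra* was called at neither time (−0.37 and 0.11). Of the 15 genes with reduced repression, 5 were called higher in KI cells at 24 hr (10.9% of all genes) and 8 at 48 hr (15.7%), with *Ccr9* at 1.36 and 2.18 and *Kcna2* at 1.37 and 2.07. At 48 hr 1 was called lower (10.7% of all genes), *Chrm4* (−1.23). At 4 hr 11 were called higher (9.56%), in libraries that the interaction uses.

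**Figure D5:**
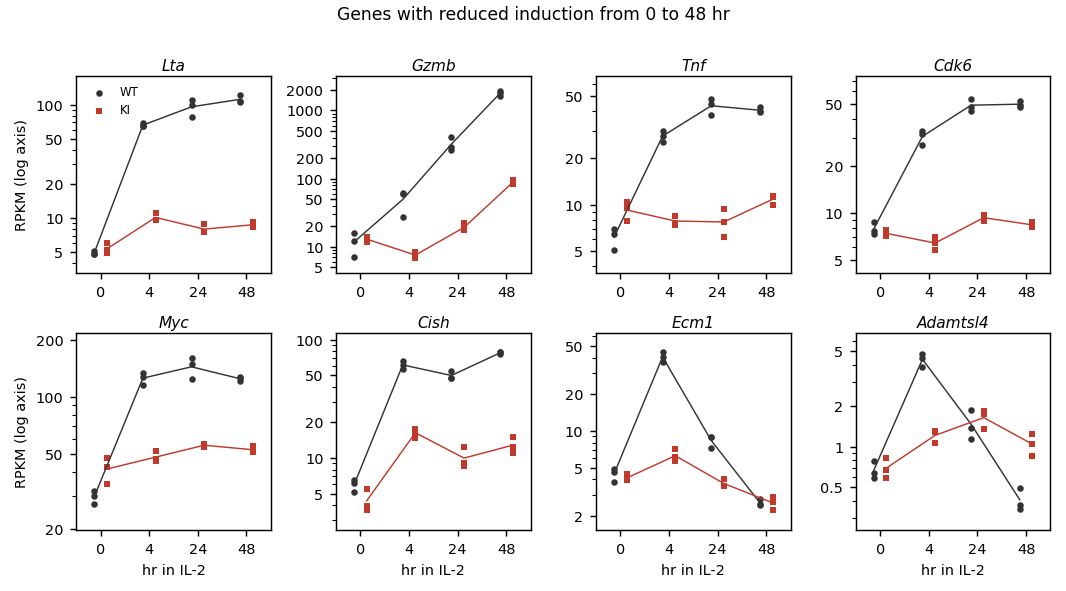
RPKM (log axis) of 8 genes with reduced induction at 0, 4, 24, and 48 hr in WT (black) and *Stat5b* KI cells (red), with the times spaced evenly and not to scale, each library as a point, and the group means joined. *Lta*, *Gzmb*, *Tnf*, *Cdk6*, *Myc*, and *Cish* stay lower in KI cells to 48 hr, while the WT level of *Ecm1* and *Adamtsl4* falls back after 4 hr.

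The same interaction was computed in the *Stat5a* line, where WT and *Stat5a* KI cells have their own libraries and the KI cells at 4 hr have 2. Replicate 2 of the WT cells at 4 hr held 17369537 reads on the transcripts used, 44.86% of its mapped reads, and was kept. Replicates 1 and 3 held 42344526 and 40583975 (71.72% and 72.94%). In the *Stat5a* line 39 genes were called lower and 18 higher (0.251% and 0.116%, 0.366% together). Of the 51 genes with reduced induction in the *Stat5b* line, 8 were called lower in the *Stat5a* line, with a median interaction of −0.64, and 48 had a value below 0. Over all genes tested the median was −0.01, and 51.2% had a value below 0. *Cdk6* (−1.75), *Ecm1* (−1.75), *Myc* (−1.42), and *Lta* (−1.13) were among the 8, with *Adamtsl4*, *Myo6*, *Setbp1*, and *Fam46a*. The values of *Socs1* (−0.04), *Cish* (−0.18), *Osm* (0.19), *Igtp* (−0.13), and *Gzmb* (−0.42) were not called. The difference between the lines, tested in the same fit, was called for 2 genes, *Lta* and *Amica1*, both lower in the *Stat5b* line (0.0129% of all genes). For the others, a call in 1 line and not in the other does not show that the lines differ.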

How the data were processed

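Total RNA of splenic CD8+ T cells was sequenced as 50 bp single-end reads. The authors aligned the reads to mm10 with TopHat 2.0.11, kept unique reads, and deposited read counts and RPKM per RefSeq transcript, and the counting program and use of strand are not given in the sources used here. The longest transcript of each symbol was kept. The deposited counts were fitted in edgeR 4.0.16 (R 4.3.3) by the quasi-likelihood test, with TMM scaling, filterByExpr (minimum count 10), and 1 mean per group over 47 libraries. P-values were adjusted by Benjamini-Hochberg over 15562 genes, and calls needed an adjusted p of 0.05 or less and a fold of 2 or more. SE was the log2 value divided by the root of F. DESeq2 1.42.0 and limma 3.58.1, on the log2 of RPKM + 1, were alternatives, with other filters, scalings, library sets, and each library left out. The members and lists were chosen with earlier results of these data known. Named genes, of RPKM 1 or more in a group and no group wholly at 3 or fewer counts, were the 12 most negative interactions with called induction, the 8 most positive with called repression, the 5 most extreme others each way, 5 fixed genes (*Stat5a*, *Stat5b*, *Myc*, *Crem*, *Cish*), and for each list its called members (at most 5) or its most abundant one. Sequences were read from RefSeq GRCm38.p6 and the study's oligo list.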

Additional observations from a re-analysis of the deposited data

Results flagged for a closer look

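The interaction differed between the *Stat5b* and *Stat5a* lines for 2 genes in the test of the difference itself (edgeR, 47 libraries). For *Lta* the difference was −1.69 ± 0.25 (SE, edgeR adjusted p = 0.00122), with an interaction of −2.82 in the *Stat5b* line and −1.13 in the *Stat5a* line. For *Amica1* it was −1.33 ± 0.21 (SE, edgeR adjusted p = 0.00158), with −1.92 and −0.58. The *Stat5a* KI cells at 4 hr had 2 libraries in this fit, which kept the shallow replicate 2 of the WT cells of that line at 4 hr.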

How the results depend on the processing

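Counts are given here as percent of the genes tested under each setting. As reported they were 0.437% lower, 0.122% higher, 0.328% with reduced induction, 0.0964% with reduced repression, and 0.276% for early genes with a lower interaction. Of the 87 called genes, 28 kept the call in every alternative that gave a value and 50 without each single library, and none changed sign. With the 12 libraries of the comparison alone, 0.263% were higher and 0.159% had reduced repression. With the 24 libraries of the line, 0.777% were lower, 0.304% higher, and 0.203% had reduced repression. With all 48 libraries, 0.208% were lower, 0.0519% higher, 0.169% had reduced induction, 0.039% reduced repression, and 0.149% were early genes with a lower interaction. With limma, 0.0386% were higher and 0.0257% had reduced repression, while 2.62% rose and 3.25% fell in WT and 2.02% rose and 3.08% fell in KI cells. At RPKM of at least 1, 5.37% of 11682 genes rose in WT and 4.61% in KI cells. With no fold threshold, 1.18% were lower, 0.893% higher, 0.977% had reduced induction, 0.726% reduced repression, and 0.964% were early genes, with 26.5% rising and 23.3% falling in WT and 26.8% and 21.4% in KI cells. The cause was not tested.

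Leaving out each library gave 0.373% to 0.483% lower, 0.0643% to 0.129% higher, 0.29% to 0.361% with reduced induction, 0.0514% to 0.09% with reduced repression, and 0.244% to 0.309% early genes. It gave 5.78% to 6.12% that rose and 8.54% to 9.85% that fell in WT, and 4.76% to 5.73% and 7.12% to 8.85% in KI cells. The higher calls fell to 10 genes without replicate 2 of WT at 4 hr and to 11 without replicate 1 of KI at 0 hr. Reduced repression fell to 8 genes without replicate 1 of WT or of KI at 0 hr or replicate 2 of WT at 4 hr, and to 9 without replicate 2 of WT or replicate 3 of KI at 0 hr. Leaving out 1 WT library of the *Stat5a* line at 4 hr (replicate 2, with 17369537 reads on the transcripts used), chosen after seeing the data, gave 60 early genes with a lower interaction.

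Replicate numbers were not taken to pair the samples, since deviations of same-numbered 0 and 4 hr libraries correlated at 0.0082 to 0.138 in WT and 0.0753 to 0.245 in KI cells. With the replicate number as a block, 0.45% of genes were lower, 0.148% higher, 0.328% had reduced induction, and 0.122% reduced repression. In simulated counts of this comparison (15446 genes), 30% of genes with a true fold of 2 and 71.4% of those with a fold of 4 were called. Of those with a true fold of 2, 57% passed the adjusted p, and a call also needed a fitted fold of 2 or more.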
